A study of Schizosaccharomyces pombe with 5 samples.

Results

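The 82 genes described here encode factors that build ribosomes in fission yeast, Schizosaccharomyces pombe, and their mRNAs were followed in cells under 2 drugs, diamide and hydroxyurea. They were chosen by name. A gene was taken if its name was utp, nop, rrp, noc, nog, nsa or rpf followed by a number, which gave 63 genes, or if it was among 20 further names of the same pathway, of which 19 were found and krr1 was not found under that name. The 82 genes stand among 5134 with a test in all comparisons. The rule uses names alone, but the group was proposed with earlier results of these data known.

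Making a ribosome starts in the nucleolus, where RNA polymerase I transcribes the long precursor of the ribosomal RNAs. A large particle, the small-subunit processome, folds and cuts the part of the precursor that goes into the small subunit, while other factors shape the large subunit, and small nucleolar ribonucleoproteins (snoRNPs) modify bases and riboses. The RNA exosome trims precursors and destroys by-products. In yeasts these genes are known as a co-regulated group whose mRNAs follow growth and fall in many stresses, and most of the roles named below were worked out in budding yeast.

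Whole-cell RNA came from a wildtype strain, 972 h-, grown at 30 °C. The conditions were untreated cells (control), 3 mM diamide (DIA, a thiol oxidant) for 30 min (DIA30) or 60 min (DIA60), and 75 mM hydroxyurea (HU, an inhibitor of ribonucleotide reductase) for 60 min (HU60) or 150 min (HU150). By the methods of the study, DIA30 and HU60 precede the appearance of N-Caps, the enlarged perinuclear reticulum with clustered nuclear pores, and DIA60 and HU150 mark its start. The read statistics list 15 libraries, 3 per condition, of 24116729 to 24274040 read pairs (median 24205618).

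Fold changes against the control, their standard errors (SE) and adjusted p-values are those of the authors' deposited tables, from the Wald test of DESeq2 with Benjamini-Hochberg adjustment over all genes. A gene is called higher or lower here at an adjusted p below 0.05, and raised or lowered at least 2-fold if its log2 fold change is also at least 1 in size. Levels are normalized counts per condition, rebuilt from the mean over all libraries and the 4 fold changes. They have no spread of their own and depend on gene length, so they serve to compare conditions within a gene. No value per library was used. By a legend of the study the 3 libraries of a condition are independent repetitions. The SEs come from the authors' DESeq2 fit over all conditions, and the spread between the libraries of a single condition was not seen. Levels are shares of the sequenced mRNA, and less mRNA of a gene per cell cannot be told apart from more of all other mRNA.

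All 82 identifiers matched the RefSeq annotation with the same symbol. For 79 genes the product fitted ribosome assembly or RNA processing or, as for protein Utp8 and protein Noc12, named no role. For the other 3 it named another role. The product of rrp1 (SPAC17A2.12) is a DNA helicase, that of rrp2 (SPBC23E6.02) a DNA translocase and ubiquitin ligase, and that of drs1 (SPCC1223.07c) the ligase that joins aspartate to its tRNA. They share a name with budding yeast ribosome factors and are kept in all counts of 82, with counts of the 79 others beside them. The genes were well covered. Their mean normalized counts ran from 367 (noc12) to 22583 (fib1) with a median of 3028, against 1303 over all genes, and 67 of the 82 lay above the median gene. The SE of a fold change was 0.039 to 0.088 on the log2 scale, with a median of 0.056, so that shifts well under 2-fold could be called.

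The 2 drugs gave medians of opposite sign. At each HU time 67 of 82 were lower than in the control, beside 22.2% of all genes in HU60 and 31.7% in HU150. The median over all 82 lay 15.0% below the control in HU60 and 19.3% below it in HU150. In DIA more genes were higher than lower. The genes higher were 39 in DIA30 and 45 in DIA60, beside 29.1% and 36.4% of all genes. The medians over all 82 lay 8.19% and 11.1% above the control. Only utp21 and rrp17 reached a 2-fold change, utp21 in HU150 and rrp17 in DIA60.

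**Figure D1:**
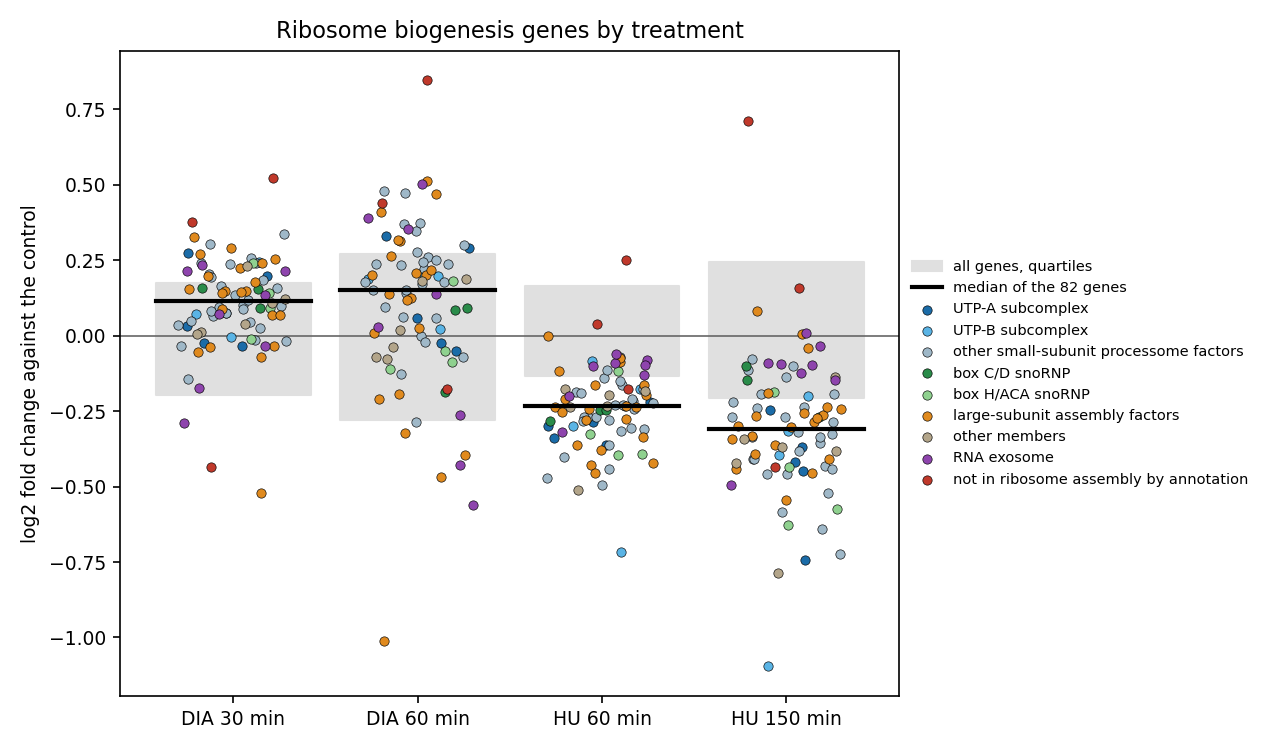
Log2 fold change against the control (vertical axis) of each of the 82 genes in the 4 treatments, 1 point per gene, coloured by role. The black line is the median of the 82 genes and the grey box spans the quartiles of all 5134 genes. The medians are 0.11 for DIA30 and 0.15 for DIA60, and -0.23 for HU60 and -0.31 for HU150, and rrp17 is the lowest point in DIA60 and utp21 in HU150.

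After 60 min of HU, 67 genes were lower, 1 was higher and 14 were not called. Of all genes tested, 22.2% were lower and 24.6% higher by the same rule. The single gene that was higher is drs1, the tRNA ligase. Among the 79 genes without rrp1, rrp2 and drs1, 0 were higher and 66 lower in the Wald test of DESeq2. All 79 had a log2 fold change below 0. Each count of 0 genes higher given here and below was also 0 at an unadjusted p below 0.05. The median of the 82 was -0.23, against 0.00 over all genes. No gene was raised or lowered at least 2-fold in this test (background 2.08% and 0.195% of all genes), and the log2 fold changes ran from -0.72 (utp21) to 0.25 (drs1).

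In HU150, 67 genes were lower and 2 higher, beside 31.7% and 33.1% of all genes. The 2 that were higher are drs1 and rrp2, both outside ribosome assembly, so that of the 79 again 0 were higher and 66 lower. The median of the 82 was -0.31, against 0.01 over all genes. A 2-fold fall was called for utp21 alone and a 2-fold rise for no gene (1.69% and 4.09% of all genes). Between the 2 HU times 60 genes were lower in both, a count not made over all genes.

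In DIA30, 39 genes were higher and 5 lower, beside 29.1% and 28% of all genes. The median was 0.11, against 0.01 over all genes. Of the 79, 37 were higher and 4 lower. The 5 that were lower were rrp17, rrp42, rrp46, utp22 and rrp2. No gene reached 2-fold in either direction in the Wald test (3.04% of all genes were raised and 1.69% lowered).

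In DIA60, 45 genes were higher and 13 lower, beside 36.4% and 35.3% of all genes, and the median was 0.15, against 0.01 over all genes. No gene was raised 2-fold and rrp17 alone was lowered 2-fold (4.19% and 3.95% of all genes). Both DIA times showed 34 genes higher and 5 lower, counts not made over all genes. Of the 79, 43 were higher and 12 lower. The values ran from -1.01 (rrp17) to 0.85 (drs1), against -0.52 to 0.52 for the same 2 genes in DIA30.

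These directions were set against all genes. Ribosomal protein genes as the reference move every gene by the same amount within a treatment, up by 0.65 in HU150, so the counts are given beside the shares of all genes under the same reference. In HU150 74 genes were then higher and 3 lower, beside 89.1% and 2.92% of all genes, and the share higher is near that of all genes. In HU60 14 were higher and 16 lower, beside 66.4% and 4.32%. In DIA60 67 were higher and 5 lower, beside 56.5% and 20.1%, and in DIA30 25 were higher and 5 lower, beside 21.2% and 35.9%. Centred on the median of all genes, every count stayed within 1.5 times its value and every named gene kept its call. That centring moved values by only 0.003 to 0.008, so little could change.

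The most common set of calls over the 4 treatments, in 21 genes, was higher in both DIA times and lower in both HU times. In 17 genes DIA gave no call and both HU times were lower. In 10 genes only DIA60 was higher and both HU times lower, and 6 genes were lower in DIA60 and in both HU times. Lower in all 4 were rrp42 and utp22, higher in all 4 was drs1, and rrp43 was called in none. These sets of calls were not counted over all genes, so they have no background share.

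**Figure D2:**
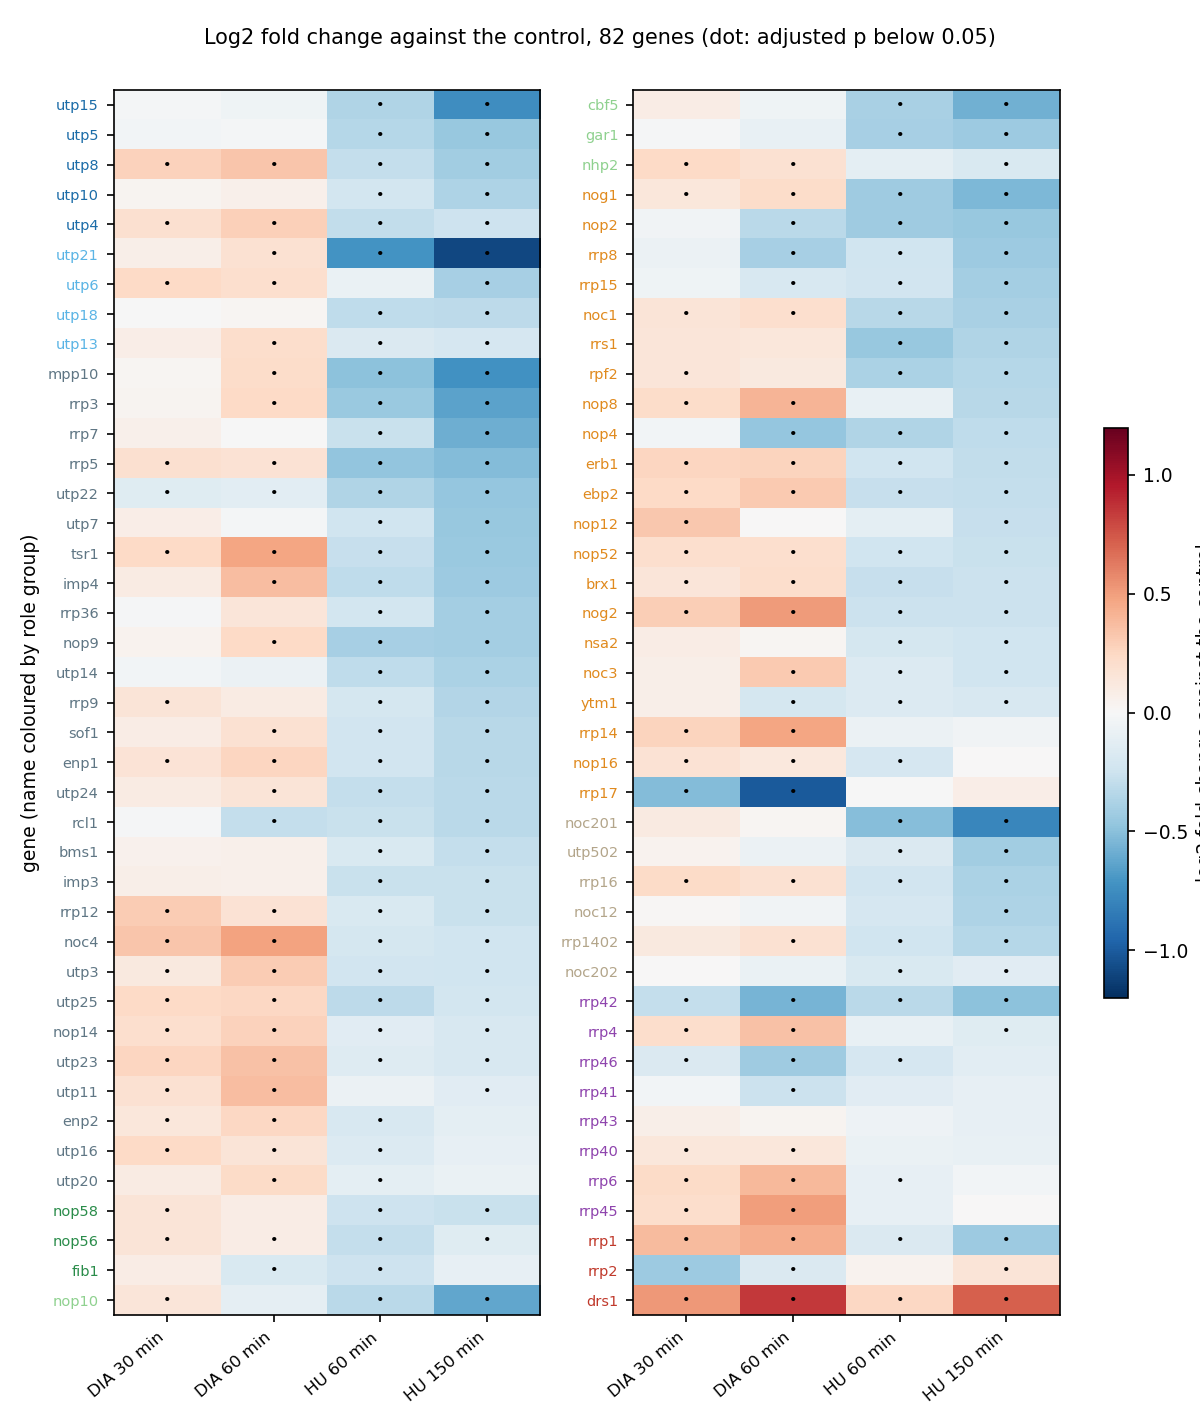
Log2 fold change against the control of the 82 genes (rows) in the 4 treatments (columns), sorted by role and, within a role, by the value in HU150. Red is higher and blue lower than the control, a dot marks an adjusted p below 0.05, and the name's colour gives the role as in the plot of single points. Both HU columns are blue for 77 genes, and 60 genes were called lower in both, counts not made over all genes. The DIA columns are red or pale for most.

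The UTP-A group binds the precursor RNA first, while it is still being made. Its 5 measured genes, utp4, utp5, utp8, utp10 and utp15, were all lower in both HU times, with a median log2 fold change of -0.30 in HU60 and -0.42 in HU150. In DIA only utp4 and utp8 were higher, at both times. The rebuilt level of utp15 was 3633 in the control, 3576 in DIA30 and 3509 in DIA60, against 2828 in HU60 and 2172 in HU150. Its DIA levels lay close to the control and its HU levels well under it. On the log2 scale utp15 fell by 0.36 in HU60 and by 0.74 ± 0.044 (SE) in HU150, to 0.598 of the control (DESeq2 adjusted p = 1.14e-63). Of this group utp10 had the highest mean count. It went from 5429 in the control to 5555 and 5658 in DIA30 and DIA60, and to 4657 and 4208 in HU60 and HU150. It was called in HU only, where its log2 fold changes were -0.22 and -0.37.

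The UTP-B group joins next and holds the U3 snoRNP in place. It contains utp21, which fell more in HU than any other of the 82. Its level was 3521 in the control, 3701 in DIA30 and 4007 in DIA60, against 2140 in HU60 and 1648 in HU150. The HU150 level was 0.468 of the control and the HU60 level 0.608. The log2 fold changes in HU were -0.72 ± 0.044 (SE, adjusted p = 3.57e-59) and -1.10 ± 0.044 (SE, adjusted p = 4.62e-136, both Wald tests of DESeq2). Among all 5134 genes this placed utp21 (SPCC1672.07) in the lowest 1.24% in HU60 and the lowest 1.61% in HU150, whereas in DIA60 it was higher by 0.19. The other 3 genes of the group did not follow it to the same depth. In HU150 utp6, utp13 and utp18 had log2 fold changes of -0.40, -0.20 and -0.32, all called lower, and utp6 was not called in HU60 (-0.08). In DIA60 utp6, utp13 and utp21 were higher, and utp18 was not called (0.02). The gene with the highest mean count of the 4, utp13, had a level of 3137 in the control and 3622, 2777 and 2730 in DIA60, HU60 and HU150.

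The other 28 genes of the small-subunit processome and the particles that follow it form the largest role group. In HU60 27 were lower and in HU150 25, beside 22.2% and 31.7% of all genes. At either time 0 were higher in the Wald test, beside 24.6% and 33.1% of all genes. In DIA30 13 were higher and 1 lower, beside 29.1% and 28% of all genes. In DIA60 19 were higher and 2 lower, beside 36.4% and 35.3%. The medians were 0.10 and 0.20 in the DIA times and -0.24 and -0.33 in the HU times.

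Mpp10 forms a complex with Imp3 and Imp4 that helps the U3 RNA pair with the precursor. The level of mpp10 was 3428 in the control, 3490 in DIA30 and 3998 in DIA60, against 2430 in HU60 and 2078 in HU150. It was higher only in DIA60 (log2 0.22) and fell by 0.50 in HU60 and 0.72 ± 0.051 (SE) in HU150 (DESeq2 adjusted p = 1.94e-44). Its partner imp4 had levels of 1835, 1970, 2376, 1483 and 1360 in the same order of conditions, and was called higher in DIA60 (0.37) and lower in HU60 (-0.31) and HU150 (-0.43). The third subunit, imp3, was called lower in both HU times at -0.27 and was not called in DIA.

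A large RNA-binding protein needed for both subunits is encoded by rrp5. This gene had the highest mean count of the group. Its levels were 6907 in the control, 7905 and 7808 in DIA30 and DIA60, and 4981 and 4811 in HU60 and HU150. The HU levels of rrp5 were similar to each other (-0.47 and -0.52 on the log2 scale). The gene rrp7, whose product acts with Utp22 in the UTP-C group, fell by 0.27 in HU60 and by 0.59 in HU150, with levels of 1237 in the control, 1025 in HU60 and 825 in HU150. In DIA rrp7 was not called, while utp22 was lower at both DIA times (-0.14 and -0.13).

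Several factors of this group had their highest levels in DIA60. The level of noc4, which acts with Nop14, was 2211 in the control, 2793 in DIA30 and 3086 in DIA60, against 1905 in HU60 and 1874 in HU150. Its log2 fold changes were 0.34 and 0.48 ± 0.056 (SE, DESeq2 adjusted p = 2.35e-17) in DIA and -0.22 and -0.24 in HU. A GTPase-like protein that acts on late small-subunit particles is encoded by tsr1, with levels of 3238, 3818, 4489, 2666 and 2383 in the control, DIA30, DIA60, HU60 and HU150. The log2 fold changes of tsr1 were 0.24 and 0.47 ± 0.040 (SE, DESeq2 adjusted p = 6.03e-31) in DIA and -0.28 and -0.44 in HU, so it was higher at both DIA times and lower at both HU times. The exceptions in DIA60 were utp22 and rcl1, a partner of the GTPase Bms1, which was called lower at -0.29.

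Of the snoRNP proteins, the 3 of box C/D particles guide ribose methylation and the 4 of box H/ACA particles guide the conversion of uridine to pseudouridine. Fibrillarin, the methyltransferase encoded by fib1, had the highest counts of all 82 genes, with levels of 23918 in the control, 25482 in DIA30 and 21004 in DIA60, against 20179 in HU60 and 22333 in HU150. It was lower in DIA60 (-0.19) and HU60 (-0.25) and not called in DIA30 (0.09) or HU150 (-0.10). Its partners nop56 and nop58 were lower in both HU times and higher in DIA30. The pseudouridine synthase gene cbf5 had levels of 17225, 18336, 16626, 13131 and 11570 in the control, DIA30, DIA60, HU60 and HU150. It was called in HU only, with -0.39 and -0.57 ± 0.047 (SE, DESeq2 adjusted p = 1.24e-33). The median of the 4 box H/ACA genes was -0.36 in HU60 and -0.51 in HU150, against -0.25 and -0.15 for the 3 box C/D genes. The difference between these small groups was not tested.

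The 21 large-subunit factors were lower in 17 cases in HU60 and 18 in HU150, beside 22.2% and 31.7% of all genes. At either time 0 were higher in the Wald test, beside 24.6% and 33.1% of all genes. In DIA30 12 were higher and 1 lower, beside 29.1% and 28% of all genes. In DIA60 11 were higher and 6 lower, beside 36.4% and 35.3% of all genes. The 6 were nop2, nop4, rrp8, rrp15, rrp17 and ytm1.

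The GTPase Nog2 binds the large subunit late in the nucleus and leaves before export. Its gene had levels of 5224 in the control, 6394 in DIA30 and 7451 in DIA60, against 4382 in HU60 and 4372 in HU150. The 2 HU levels were 0.00 apart on the log2 scale (SE of the difference 0.087). The log2 fold change of nog2 in DIA60 was 0.51 ± 0.061 (SE, DESeq2 adjusted p = 2.9e-16). The gene of Nog1, a GTPase that joins earlier, had the highest mean count of the group. Its levels were 9739 in the control, 10732 and 11321 in DIA30 and DIA60, and 7268 and 6683 in HU60 and HU150. The last 2 values were -0.42 and -0.54 on the log2 scale.

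The exonuclease Rrp17, which trims ends of large-subunit RNAs in budding yeast, changed in DIA and not in HU. The level of rrp17 (SPAC29A4.09) was 1298 in the control, 904 in DIA30 and 644 in DIA60, against 1296 in HU60 and 1372 in HU150. It fell by 0.52 ± 0.076 (SE) in DIA30 and by 1.01 ± 0.077 (SE) in DIA60 (DESeq2 adjusted p = 4.27e-11 and 6.66e-38), to 0.496 of the control, and the HU levels stayed near the control (0.00 and 0.08, neither called). Of the 21 it was the only gene lower in DIA30.

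The genes nop4, for an RNA-binding protein, and rrp8, for a methyltransferase of large-subunit RNA, were near the control in DIA30 and lower in DIA60. Levels of nop4 were 4228, 4130, 3057, 3288 and 3427 in the control, DIA30, DIA60, HU60 and HU150, and the fall in DIA60 was 0.47 ± 0.059 (SE, DESeq2 adjusted p = 8.33e-15) in size. Levels of rrp8 were 1432, 1363, 1089, 1215 and 1055 in that order, with log2 fold changes of -0.40 in DIA60, -0.24 in HU60 and -0.44 in HU150. The gene nop16, for a constituent of large-subunit precursors, was lower in HU60 only (-0.20) and stood at the control level in HU150 (0.01).

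**Figure D3:**
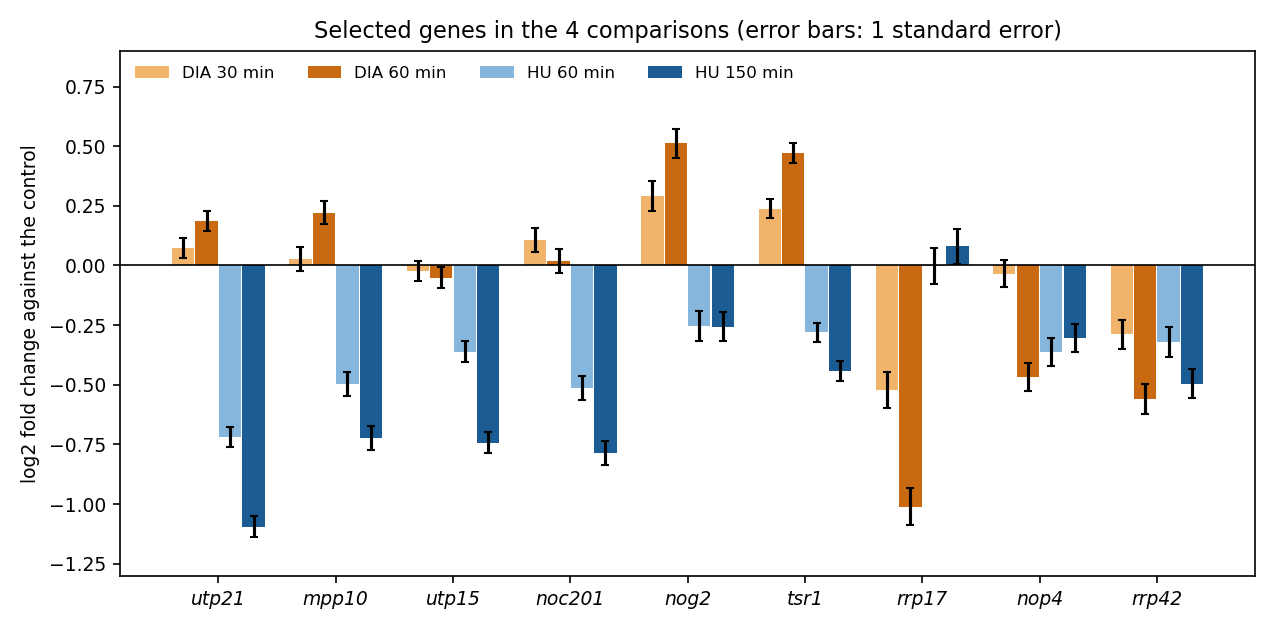
Log2 fold change against the control (vertical axis) of 9 genes in DIA30, DIA60, HU60 and HU150, with error bars of 1 standard error. The bars of utp21, mpp10, utp15 and noc201 point down in HU, those of nog2 and tsr1 point up in DIA and down in HU, rrp17 falls in DIA alone, and rrp42 is lower in all 4.

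The RNA exosome is a ring of subunits with a cap and attached nucleases, and it acts on many RNAs besides ribosomal precursors. Of its 8 genes 3 were lower in HU60 and 2 in HU150, and the median was -0.10 at both times, the nearest to 0 among the role groups described so far. In DIA60 4 were higher and 3 lower. For so few genes these counts lie near the shares of all genes (36.4% higher and 35.3% lower in DIA60, 31.7% lower in HU150). The ring subunit gene rrp45 had levels of 876 in the control, 1016 in DIA30 and 1240 in DIA60, against 818 in HU60 and 880 in HU150. It was higher in DIA60 by 0.50 ± 0.055 (SE, DESeq2 adjusted p = 2.76e-19). The genes of 2 other ring subunits went the other way in DIA60. The levels of rrp42 were 1803, 1477, 1223, 1444 and 1279 in the control, DIA30, DIA60, HU60 and HU150, with a DIA60 value of -0.56 ± 0.062 (SE, DESeq2 adjusted p = 5.34e-19), and those of rrp46 were 829, 735, 616, 721 and 761, with a DIA60 value of -0.43. The nuclear nuclease gene rrp6 had the highest mean count of the 8, with levels of 2827, 3324, 3709, 2638 and 2762. It was higher in both DIA times (0.23 and 0.39) and lower by a small amount in HU60 (-0.10).

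Of the 6 remaining genes, noc201 changed most. It encodes a protein of the Noc2 family, which escorts large-subunit precursors, and its level was 4959 in the control, 5344 in DIA30 and 5029 in DIA60, against 3478 in HU60 and 2875 in HU150. The log2 fold changes in HU were -0.51 and -0.79 ± 0.050 (SE, DESeq2 adjusted p = 1.85e-53), and neither DIA time was called. A second gene of that family, noc202, had -0.18 in HU60 and -0.14 in HU150, both called. This difference between the pair was seen after the values were known and was not tested. All 6 had a negative log2 fold change in HU60, and 5 were called lower there.

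The 3 genes outside ribosome assembly are given separately. The tRNA ligase gene drs1 had levels of 7794 in the control, 11200 in DIA30 and 14020 in DIA60, against 9279 in HU60 and 12774 in HU150. It was higher in all 4 treatments, by 0.85 ± 0.047 (SE) in DIA60 and 0.71 ± 0.047 (SE) in HU150 (DESeq2 adjusted p = 9.17e-70 and 1.12e-49). The helicase gene rrp1 was higher in DIA (0.38 and 0.44) and lower in HU (-0.18 and -0.43), while rrp2 was lower in DIA (-0.43 and -0.18) and higher in HU150 (0.16). Their levels were 922, 1197, 1250, 816 and 683 for rrp1 and 1135, 840, 1004, 1165 and 1265 for rrp2, in the control, DIA30, DIA60, HU60 and HU150.

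The treatments were then compared with each other. For each gene 1 log2 fold change was subtracted from the other, the SEs were combined as the square root of the sum of their squares, and two-sided p-values of a z-test were adjusted over the 5134 genes. All treatments share the control libraries, which makes this SE too large and the z-test cautious.

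At 60 min of each drug, 65 genes were lower in HU60 than in DIA60 and 4 higher, beside 29.3% and 29.4% of all genes. The median difference was -0.37. At the 2 times at which N-Caps begin, 67 were lower in HU150 than in DIA60 and 3 higher, beside 34.3% and 32.4%, with a median difference of -0.46, a level in HU150 that was 0.726 of that in DIA60. The largest differences in HU150 against DIA60 were -1.28 ± 0.060 (SE) for utp21, -0.94 for mpp10 and -0.91 for tsr1. For rrp17 the difference was 1.09 ± 0.11 (SE, z-test adjusted p = 1.67e-23), so that its level in HU150 was 2.13 times that in DIA60. The other 2 genes higher in HU150 than in DIA60 were rrp2 (0.33) and rrp46 (0.30). Of the 4 genes higher in HU60 than in DIA60, rrp17 stood at 1.01, rrp42 at 0.24, rrp46 at 0.23 and rrp2 at 0.22. In HU150 minus DIA60, 12 genes were not called, among them fib1, nop4, rrp8, rrp42 and drs1. For fib1 the difference was 0.09 with an SE of 0.098.

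**Figure D4:**
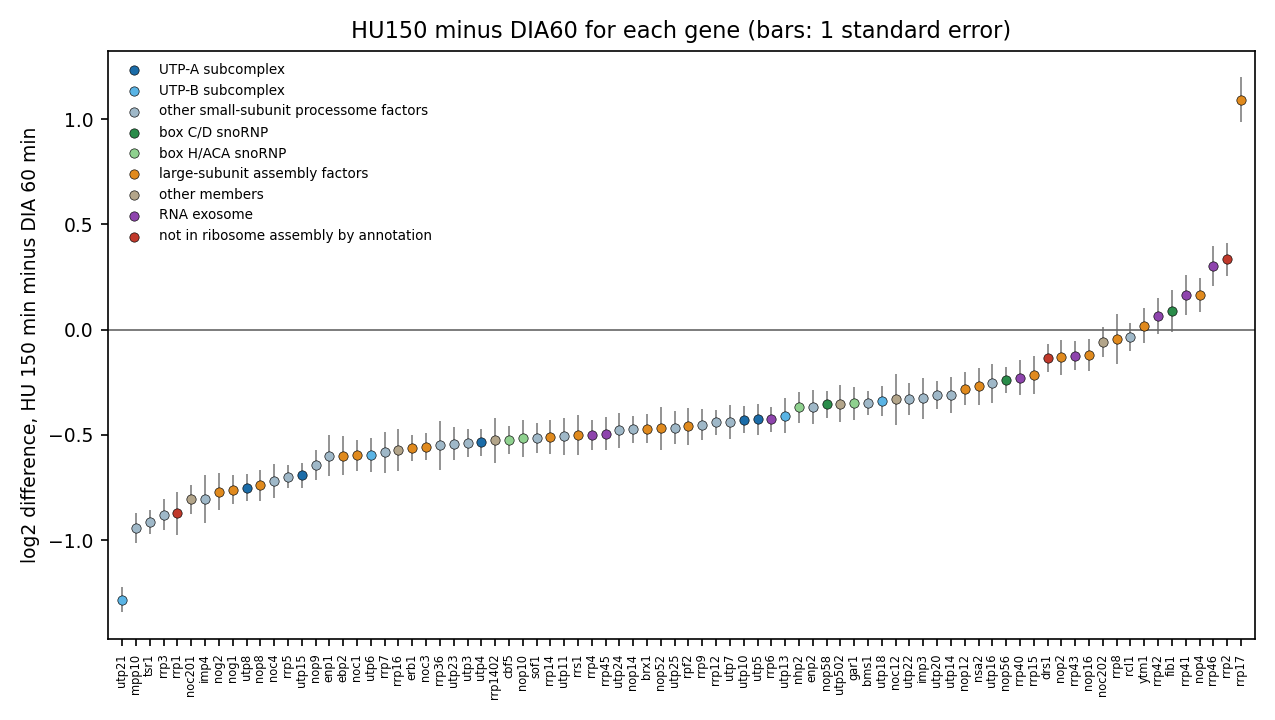
Log2 fold change in HU150 minus that in DIA60 (vertical axis) for each of the 82 genes, ordered from lowest to highest and coloured by role, with bars of 1 standard error. The values run from -1.28 for utp21 to 1.09 for rrp17 and 74 of 82 lie below 0.

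In the 2 DIA times 14 genes were higher in DIA60 than in DIA30 and 12 lower, beside 17.1% and 21% of all genes, and the median difference was 0.01. These shares are near those of all genes. The genes lower in DIA60 than in DIA30 were led by rrp17 (-0.49), nop4 (-0.43) and rrp8 (-0.32), and those higher by drs1 (0.32), rrp45 (0.29) and imp4 (0.27). Of the 12 that were lower, 6 were among the 21 large-subunit factors and 3 among the 8 exosome subunits, beside 21% of all genes. In the processome group outside UTP-A and UTP-B 6 of 28 were higher and 1 lower, beside 17.1% and 21%. A difference between role groups was not tested.

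Between 60 and 150 min of HU 13 genes were lower and 2 higher, beside 14.6% and 11.1% of all genes, and the median difference was -0.05. The share lower, 15.9%, is near that of all genes, and the share higher, 2.44%, is below it. The 2 that were higher are drs1 (0.46) and nop16 (0.20). Further falls were largest for utp15 (-0.38), utp21 (-0.38) and rrp7 (-0.31), and mpp10, noc201, cbf5 and tsr1 were also lower at 150 min than at 60 min. For 67 of the 82 genes no difference between the HU times was called.

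Other genes of the pathway were read beside these. By the same rule 29.1% of all genes were higher and 28% lower in DIA30, and 36.4% and 35.3% in DIA60. In HU60 24.6% were higher and 22.2% lower, and in HU150 33.1% and 31.7%. Of 70 further ribosome assembly factors, 60 were lower in HU60 and 57 in HU150, with medians of -0.26 and -0.30, and 0 and 1 were higher. In DIA60 30 were higher and 11 lower with a median of 0.10, and in DIA30 31 and 4 with a median of 0.10. The extremes were dbp2, a DEAD-box helicase gene (0.83 in DIA60), and rlp7, for a large-subunit factor (-0.95 in HU150). Of 13 genes of RNA polymerase I and its initiation factors, 11 were lower in each HU time and 0 higher in the Wald test. In DIA60 7 were higher and 4 lower. The initiation factor gene rrn3, which links the polymerase to the promoter, was the highest in both DIA times (0.39 and 0.79), and spp27, for a subunit of the upstream activating factor, was the lowest in HU150 (-0.87). Of 10 genes of RNA polymerase III, which makes tRNA and the smallest ribosomal RNA, 8 were lower in HU60 and 9 in HU150, and 6 were higher and 2 lower in DIA60. The lowest of them in HU150 was rpc11 (-0.85). For so few genes the DIA60 counts of both polymerases are not far from the shares of all genes.

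The 138 cytosolic ribosomal protein genes, whose products are the protein part of the finished ribosome, took another course in DIA60. There 107 of the 138 were lower and 0 higher in the Wald test, beside 35.3% and 36.4% of all genes. The median of the 138 was -0.21, while the assembly factors had a median of 0.15. In DIA30 13 were higher and 4 lower with a median of 0.06. In HU60 115 were lower with a median of -0.23, equal to that of the assembly factors at 2 decimals. In HU150 all 138 were lower with a median of -0.65, against -0.31 for the assembly factors, and 6 fell at least 2-fold, the lowest being rps1401 (-2.01). From DIA30 to DIA60 106 ribosomal protein genes fell and 0 rose by the z-test, beside 21% and 17.1% of all genes. From HU60 to HU150 134 fell and 0 rose, beside 14.6% and 11.1% of all genes. Many ribosomal protein genes have near-identical copies that can share reads, so single values of these are uncertain. The difference between the lists was not tested.

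**Figure D5:**
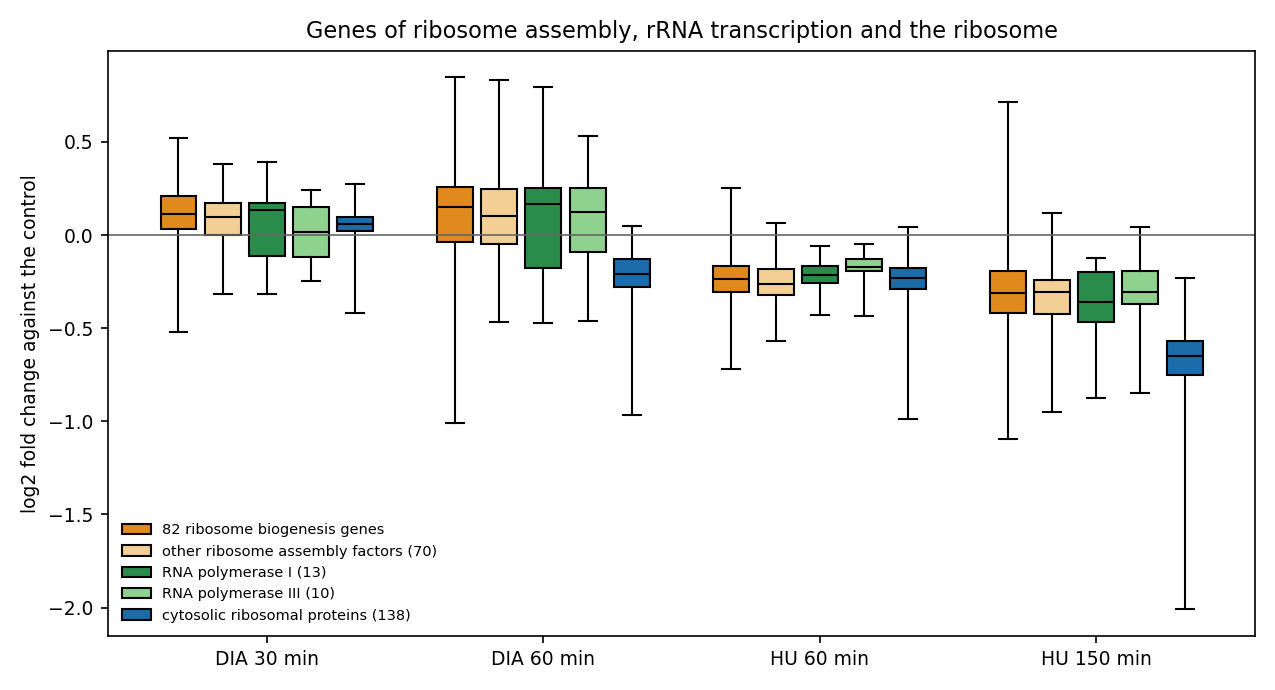
Log2 fold change against the control (vertical axis) in the 4 treatments for the 82 genes and 4 other gene lists, with the number of genes in brackets. Boxes span the quartiles with the median as a line, and whiskers reach the lowest and highest gene. In DIA60 the ribosomal protein genes (median -0.21) lie below the other lists, and in HU150 all lists lie mostly below 0, the ribosomal protein genes furthest (median -0.65).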

How the data were processed

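Per the labels and the methods of the study, strand-specific mRNA libraries of whole-cell RNA were mapped by the authors with STAR 2.7.10a and SAMtools 1.3 to ASM294v2, counted with HTSeq 2.0.1 and compared in DESeq2. The strand setting of the counting is not given in the sources used here. The log2 fold changes and their SEs are those in the authors' deposited tables, 1 per treatment. The signal values the authors deposited are mean normalized counts over all libraries, and the deposited score is the Wald statistic, and the p-values the authors deposited are two-sided, with and without adjustment. The deposited GC percent and read pairs per library enter as ranges only. These comparisons with the control are the authors' own and were not refitted, since no value per library was used. As checks, the fold change over its SE equalled the Wald statistic, and renewed adjustment equalled the adjusted p, in all 4 tables.

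Computed here (Python 3.11.15, pandas 2.3.3, numpy 2.4.6, scipy 1.17.1, matplotlib 3.10.9) were the counts, the medians, the rebuilt levels, which assume equal numbers of libraries per condition, and the z-test between treatments, tested on simulated data. The members and lists were chosen with earlier results of these data known. Ribosomal protein genes were taken by name. From the list of other assembly factors 6 genes were dropped by their annotation. Named genes were those called at 2-fold (at most 12 per comparison) and the 3 highest and 3 lowest in each comparison and difference. Also named were the gene with the highest mean count of each role and the extremes of each other list. Others were named after their values were seen, where a small group or count is described. RefSeq annotation of another assembly version served for products and neighbours only, so promoter motifs and levels per length, and the genes to be named by the latter, were not computed. Alternatives were another fold limit, a stricter adjusted p limit of 0.01, a mean normalized count of at least 50, another centre, another SE for the z-test and other memberships.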

Additional observations from a re-analysis of the deposited data

Results flagged for a closer look

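The response of 2 named genes differed between a HU and a DIA treatment by at least 1 on the log2 scale in the z-test of the difference itself. For rrp17 the log2 fold change in HU60 exceeded that in DIA60 by 1.01 (z-test adjusted p = 6.07e-20) and that in HU150 exceeded DIA60 by 1.09 (adjusted p = 1.67e-23). For utp21 HU150 minus DIA60 was -1.28 (z-test adjusted p = 2.35e-98). HU150 and DIA60 differ in time as well as in drug. At 60 min of each drug, HU60 minus DIA60 was -0.90 for utp21, under that limit. A search for single libraries far from their group was not made, since no value per library was used.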

How the results depend on the processing

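Of 144 counts and medians under the alternatives 126 stayed within 1.5 times the main value or kept their direction. Of these 28 came from the limit on the mean count, which all 82 genes meet, so it removed none. Another 28 came from centring on all genes, which moved values by only 0.003 to 0.008 on the log2 scale. Under these 2 settings little could change. All 104 values of named genes kept their call under that same small shift. Centred on ribosomal protein genes, 25 genes were higher in DIA30, 5 lower in DIA60, 14 higher and 16 lower in HU60, and 74 higher and 3 lower in HU150. By construction this subtracts the fall of that list, which was 0.65 at the median in HU150, where 89.1% of all genes were then higher. With a fold limit of 1.5, 1 gene was raised in DIA60 and 1 in HU150, and 1 was lowered in HU60 and 7 in HU150. At an adjusted p limit of 0.01, and also without the exosome subunits, 3 genes were lower in DIA30, and without those subunits 2 were higher in HU60 than in DIA60. Without rrp1, rrp2 and drs1, an alternative chosen after seeing the annotation, 0 genes were higher in HU60, 0 in HU150, and 1 was higher in HU150 than in HU60. With SEs from rebuilt variances, 23 genes were lower in HU150 than in HU60 and 5 higher in HU150 than in DIA60. By construction these SEs leave out the variance of the shared control, which the main SE counts with each treatment. No paired analysis was possible because no label gives a replicate number shared between conditions and no value per library was used, and libraries could not be left out for the same reason.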

Other observations

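The genes erb1 and nop4 are the only neighbours on the chromosome among the 82 in the RefSeq annotation. The first encodes a scaffold of early large-subunit particles, and both were lower in HU, by -0.24 and -0.36 in HU60 and -0.30 and -0.30 in HU150. In DIA60 erb1 was higher (0.26) and nop4 lower (-0.47), and the rebuilt levels from control to DIA60 went from 6480 to 7777 for erb1 and from 4228 to 3057 for nop4.

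The genes utp5 and utp502 share part of a name, but utp502 was not placed in the UTP-A group. In HU150 their log2 fold changes were close, -0.45 for utp5 and -0.42 for utp502. In HU60 utp5 stood at -0.34 ± 0.052 (SE) and utp502 at -0.18 ± 0.062 (SE). Both genes were called lower at both HU times, and neither was called in DIA. In HU150 minus HU60, utp502 was lower (-0.24, z-test adjusted p = 0.024) and utp5 was not called (-0.11). The difference between these genes was not tested.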
